A study of Mus musculus with 11 samples.

Results

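The genes described here are 10 that encode secreted BMP-family proteins or carry a BMP name: Bmp1, Bmp2, Bmp4, Bmp5, Bmp6, Bmp7, Bmp8a, Bmp8b, Gdf11 and Gdf15. They were taken by their symbols from 23355 gene symbols in the expression tables, and all 10 are present. RNA was measured in 3 mouse lines: the E14 embryonic stem (ES) line of strain 129/Ola, the NIH3T3 fibroblast line of NIH/Swiss origin and the NMuMG mammary epithelial line of strain NAMRU. In each line some cultures carried a BRE reporter transgene, a reporter gene driven by a BMP response element, and others were parental with no transgene. The ES replicates were 2 reporter cultures, 1 of them sequenced in 2 technical runs that were averaged, and 1 parental culture. The NIH3T3 replicates were 1 parental culture as replicate 1 and 2 samples whose tables could be matched to the line and not to a culture, as replicates 2 and 3. The labels give the remaining NIH3T3 cultures as reporter cultures. The NMuMG replicates were 2 reporter cultures and 2 parental cultures. No culture had a treatment. ES cells grew in 15% fetal bovine serum with 1000 units per ml of LIF, the cytokine that keeps them pluripotent, NIH3T3 cells in 10% CCS and NMuMG cells in 10% fetal bovine serum. The labels do not say whether a reporter line is 1 clone.

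BMPs are made as precursors, joined as dimers and cut by furin-type convertases, after which the C-terminal domains bind type I and type II serine/threonine kinase receptors and activate SMAD transcription factors. Secreted antagonists such as follistatins and chordin hold the ligands away from the receptors. Bmp1 is the odd gene by name: it encodes a tolloid metalloprotease, which matures procollagens and cuts chordin, and not a BMP ligand. Gdf11 encodes a ligand close to myostatin that signals through the activin type receptors and SMAD2 and SMAD3, and Gdf15 encodes a distant family member, induced by cell stress, whose receptor is Gfral with Ret.

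The ligand genes are relatives, and how far their sequences differ bears on whether short reads can be given to 1 of them. The last 120 coding bases are shown for the nearest pair, Bmp8a and Bmp8b, and for Bmp2 and Bmp4, the pair that is the usual example of closely related BMPs. They encode the end of the mature ligand and lie inside the last coding exon. Capitals mark the bases that differ within each pair, and the sequences come from GENCODE M21 transcripts on GRCm38, at chr4:123313267-123313386 on the minus strand, chr4:123124418-123124537 on the plus strand, chr2:133561596-133561715 on the plus strand and chr14:46383859-46383978 on the minus strand.
Bmp8a: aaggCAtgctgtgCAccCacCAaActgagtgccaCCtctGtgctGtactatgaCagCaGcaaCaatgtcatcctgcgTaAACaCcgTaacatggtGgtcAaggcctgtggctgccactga
Bmp8b: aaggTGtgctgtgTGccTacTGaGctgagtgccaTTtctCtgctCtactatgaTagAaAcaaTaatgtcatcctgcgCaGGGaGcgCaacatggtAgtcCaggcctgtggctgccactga
Bmp2: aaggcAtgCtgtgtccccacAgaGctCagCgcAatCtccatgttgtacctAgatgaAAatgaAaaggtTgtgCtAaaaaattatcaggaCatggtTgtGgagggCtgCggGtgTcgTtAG
Bmp4: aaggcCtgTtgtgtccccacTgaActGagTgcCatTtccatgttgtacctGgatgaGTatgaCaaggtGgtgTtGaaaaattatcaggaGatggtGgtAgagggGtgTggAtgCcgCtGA
Bmp8a and Bmp8b differ at 24 of these 120 bases and Bmp2 and Bmp4 at 25. Over the aligned coding sequence the Bmp8 pair was 88.0% identical and Bmp2 with Bmp4 68.3%. Of the stretches of 50 bases in its transcript, Bmp8a shares 8.91% exactly with another gene, mainly Bmp8b, so its level and that of Bmp8b are uncertain where reads were split between them. Bmp8b shares 10.6%, most of it with Gm17244 and part with Bmp8a. Bmp6 shares 4.94%, with its neighbour Txndc5, and Bmp4 2.43%. Bmp1, Bmp2, Gdf11 and Gdf15 share none and Bmp7 0.0282%. For Bmp5 the share was 48.5%, all of it with Gm26903, a gene that is not among the symbols of the tables.

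The start regions of 3 of these genes are printed next, because they belong to the main BMP ligand gene of ES and NMuMG cells (Bmp4), to the gene listed at 0 in every library (Bmp5) and to the ligand gene shared by NIH3T3 and NMuMG cells (Gdf11). Each run holds the 250 bases before the gene start in RefSeq on GRCm38.p6, at chr14:46390670-46390919 on the minus strand, chr9:75775115-75775364 on the plus strand and chr10:128891719-128891968 on the minus strand. Capitals mark every match on either strand to any of the following motifs, which can overlap: the E-box CACGTG, which basic helix-loop-helix factors bind, the GC box GGGCGG, which Sp1 binds, the TATA box TATAAA, which the general transcription machinery binds, and the CCAAT box of CCAAT, which NF-Y binds.
Bmp4: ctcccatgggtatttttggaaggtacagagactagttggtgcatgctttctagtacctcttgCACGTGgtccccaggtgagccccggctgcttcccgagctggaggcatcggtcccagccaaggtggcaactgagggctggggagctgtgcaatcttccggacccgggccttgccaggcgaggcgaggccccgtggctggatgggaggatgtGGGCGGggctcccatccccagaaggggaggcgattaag
Bmp5: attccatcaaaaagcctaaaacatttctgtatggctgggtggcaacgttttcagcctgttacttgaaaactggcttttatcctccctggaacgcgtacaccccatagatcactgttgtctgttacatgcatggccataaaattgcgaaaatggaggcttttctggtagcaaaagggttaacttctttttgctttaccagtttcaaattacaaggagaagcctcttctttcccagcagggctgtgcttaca
Gdf11: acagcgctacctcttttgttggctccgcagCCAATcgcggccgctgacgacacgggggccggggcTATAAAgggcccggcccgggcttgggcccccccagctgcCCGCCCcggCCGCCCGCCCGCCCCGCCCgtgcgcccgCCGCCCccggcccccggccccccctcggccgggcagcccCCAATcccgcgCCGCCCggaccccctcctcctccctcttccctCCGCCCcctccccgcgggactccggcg
These windows differ most in base composition. GC content was 81.2% in the Gdf11 window, which is at percentile 99.1 of 32851 RefSeq start windows of this length, 63.2% in the Bmp4 window and 42.8% in the Bmp5 window, at percentile 17.9. The CpG dinucleotide, whose clusters form CpG islands, stood 33 times in the Gdf11 window, 11 times in that of Bmp4 and 4 times in that of Bmp5. A window was found for 7 of the 10 genes, the others being Bmp1, Bmp2 and Bmp7. The E-box stands in the windows of Bmp4 and Bmp6 and in 1 of the 2 windows of Gdf15, and in 6.02% of all windows. The GC box stands in those of Bmp4, Bmp6, Bmp8a, Bmp8b and Gdf11 against 32.7% of all windows, and the CCAAT box in those of Bmp8b, Gdf11 and Gdf15 against 33.8%. Gdf11 alone of the 7 has the TATA box, which 12.4% of all windows hold. The letters GTCTAGAC, a palindrome bound by SMADs, and TGATGCAA, a form of the amino acid response element, are in none of these windows, and are in 0.167% and 0.791% of all windows. The start of Gdf15 in the tables lies 460 and 821 bases downstream of its 2 RefSeq starts. That of Bmp4 lies 70 bases and that of Bmp8b 4 bases downstream of the RefSeq start. The windows of these genes are thus not directly before the starts used for their levels. Such matches describe the letters of these windows and show no binding.

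Levels are FPKM as deposited, which are fragment numbers divided by transcript length and by library size. They are set side by side between genes and between samples, with no correction for differences in RNA composition between lines. Absolute depth is unknown. Relative depth, read from the deposited upper bounds of genes listed at 0, was 0.933 to 1.28 times that of the parental ES library in 9 libraries and 3.81 and 3.80 in NIH3T3 replicates 2 and 3. The numbers in the table names form 3 runs, whose meaning the labels do not give: the first holds the ES parental culture and ES reporter culture 1 with NMuMG reporter and parental cultures 1, the second holds ES reporter culture 2, the parental NIH3T3 culture and NMuMG reporter and parental cultures 2, and the third holds NIH3T3 replicates 2 and 3. The markers matched the lines: summed over 6 genes each, ES markers reached 3918 to 5132 FPKM in ES cells and at most 4.76 elsewhere, fibroblast markers 2443 to 5473 in NIH3T3 cells and at most 4.98 elsewhere, and epithelial markers 4564 to 6744 in NMuMG cells against 0.881 at most in NIH3T3 cells and 155 to 191.5 in ES cells. Endothelial markers (4 genes) summed to at most 13.01 FPKM and blood markers (3 genes) to at most 9.77 FPKM in any replicate. An exact 0 may be a failed estimate, since up to 6 genes a replicate were listed at 0 there while at 5 FPKM or more in all the others, Rps27 of the ribosome among them in the parental ES culture. In bulk RNA, fewer cells that make a transcript and less transcript in each cell cannot be told apart.

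Among the genes for BMP ligands proper, Bmp4, a ligand that patterns the early embryo and helps ES cells stay undifferentiated, was highest in both lines that had any of them at 1 FPKM. Its level was 21.9 and 39.0 FPKM in the ES reporter cultures and 7.56 FPKM in the ES parental culture. In NIH3T3 cells it was 0.0171 FPKM in the parental culture, and 0 and 0.0223 FPKM in replicates 2 and 3. In NMuMG cells it was 4.85 and 15.2 FPKM in the reporter cultures and 6.17 and 6.88 FPKM in the parental cultures. All ES and NMuMG replicates thus lay far above all NIH3T3 replicates, whereas the ranges of ES and NMuMG cells overlapped. The mean was 22.9 ± 15.8 FPKM in ES cells (SD, n = 3) and 8.26 ± 4.67 FPKM in NMuMG cells (SD, n = 4). Among the genes at 1 FPKM or more this stood at percentile 69.6 in ES cells and 35.2 in NMuMG cells.

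Bmp2, the nearest relative of Bmp4 and a strong inducer of bone, did not reach 1 FPKM in any replicate. It was 0.0699 and 0.728 FPKM in the ES reporter cultures and 0.262 FPKM in the ES parental culture, was listed at 0 in all 3 NIH3T3 replicates, and was 0.0938 and 0.154 FPKM in the NMuMG reporter cultures and 0.966 and 0.799 FPKM in the NMuMG parental cultures. The ES and NMuMG ranges overlapped. Bmp4 exceeded Bmp2 in every ES and NMuMG replicate.

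Of the group of Bmp5, Bmp6, Bmp7, Bmp8a and Bmp8b, ligands that prefer other receptors than Bmp2 and Bmp4 do, Bmp7 alone reached 1 FPKM in more than 1 replicate. Bmp7, which the kidney and eye need to form, was 1.08 and 0.680 FPKM in the ES reporter cultures and 0.623 FPKM in the ES parental culture, and was listed at 0 in all 3 NIH3T3 replicates. It was 1.33 and 3.50 FPKM in the NMuMG reporter cultures and 1.06 and 2.31 FPKM in the NMuMG parental cultures. The ES and NMuMG ranges touched, with the highest ES replicate just above the lowest NMuMG replicate. Bmp5 was listed at 0 in every library, including both deeper NIH3T3 tables.

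Bmp6, whose liver product controls hepcidin and so iron uptake, was 0.442 and 0.499 FPKM in the ES reporter cultures and 1.07 FPKM in the ES parental culture. It was 0.00901 to 0.0181 FPKM over the NIH3T3 replicates and 0.0655 to 0.134 FPKM over the NMuMG replicates. Its levels did not overlap between any 2 lines, with ES cells highest and NIH3T3 cells lowest, although only the ES parental culture passed 1 FPKM. Bmp8b, which in the mouse acts in germ cells and brown fat, was likewise apart in ES cells: 0.533 and 0.419 FPKM in the reporter cultures and 0.810 FPKM in the parental culture, against at most 0.00729 FPKM in NIH3T3 cells and at most 0.0491 FPKM in NMuMG cells. Bmp8a, its neighbour on chromosome 4, was 0.235 to 0.588 FPKM over the ES replicates, was listed at 0 in all NIH3T3 replicates and was 0.206 to 0.701 FPKM over the NMuMG replicates, so that ES and NMuMG cells overlapped. Of the summed Bmp8a and Bmp8b level, Bmp8b made up 49.5% to 69.4% in the ES replicates and 0% to 12.4% in the NMuMG replicates. Bmp8a overlaps the entry Oxct2a and Bmp8b overlaps Oxct2b, which were at 0.0449 to 0.213 FPKM and 0.139 to 0.294 FPKM in ES cells, against at most 0.0565 and 0.0117 FPKM in NMuMG cells. The lines overlapped for Oxct2a and did not for Oxct2b, and the part of these in the Bmp8 levels was not tested.

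**Figure D1:**
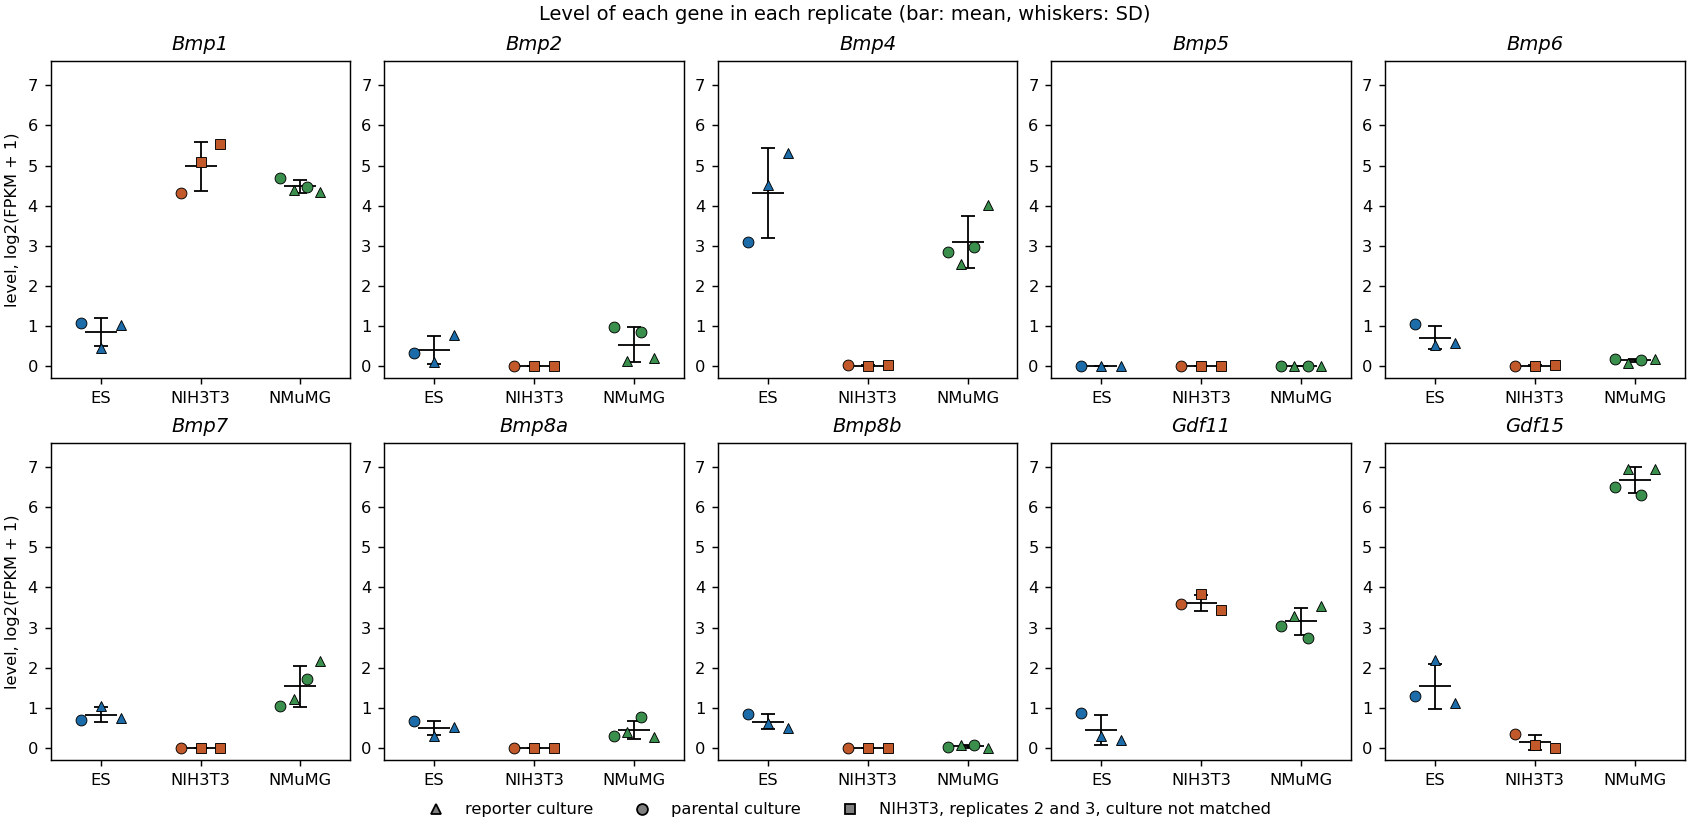
Level of each of the 10 genes, as log2(FPKM + 1), in the replicates of ES, NIH3T3 and NMuMG cells, with triangles for reporter cultures, circles for parental cultures, squares for NIH3T3 replicates 2 and 3, and the mean and SD of each line in black. Bmp4 is high in ES and NMuMG cells, Bmp1 and Gdf11 in NIH3T3 and NMuMG cells and Gdf15 in NMuMG cells, while Bmp5 is at 0 in all of them.

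Summed over the 7 genes for BMP ligands, the level was 24.3 and 41.8 FPKM in the ES reporter cultures and 10.9 FPKM in the ES parental culture. It was 0.00901 to 0.0477 FPKM in the NIH3T3 replicates, and 6.71 and 19.1 FPKM in the NMuMG reporter cultures and 8.58 and 10.8 FPKM in the NMuMG parental cultures. Each NIH3T3 sum thus lay under every ES and NMuMG sum, with Bmp2, Bmp5, Bmp7 and Bmp8a listed at 0 in it, and ES and NMuMG cells overlapped. Bmp4 made up 84.3 ± 13.1% of it in ES cells (SD, n = 3) and 71.6 ± 6.46% in NMuMG cells (SD, n = 4). The second share belonged to Bmp7 in NMuMG cells, at 17.9 ± 3.92%, against 3.92 ± 2.09% in ES cells. In the ES parental culture, which had the lowest sum of that line, Bmp6, Bmp8a and Bmp8b made up 9.76%, 5.39% and 7.42%.

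**Figure D2:**
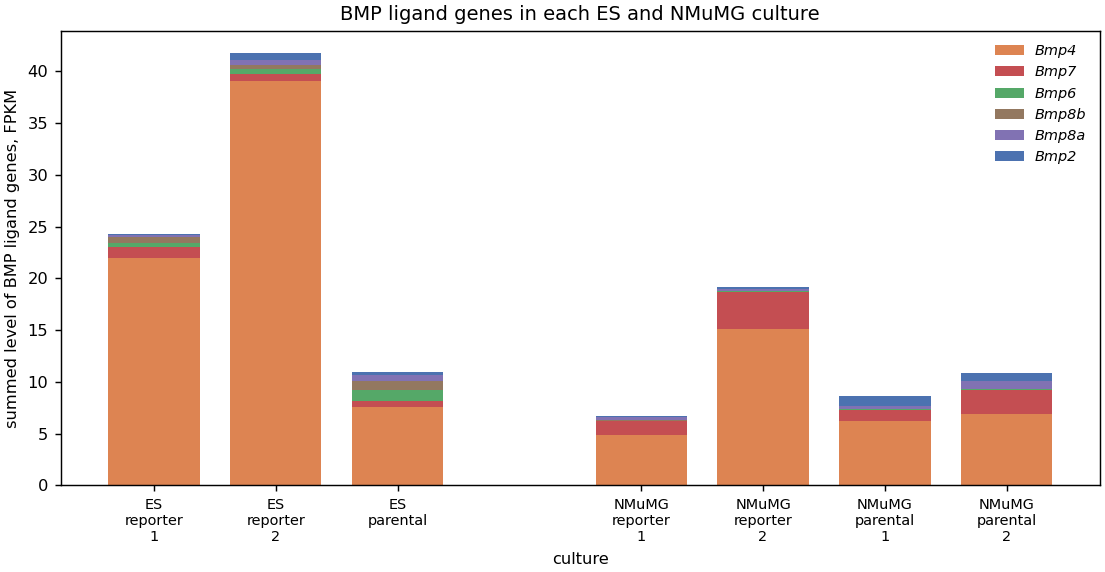
Summed FPKM of the BMP ligand genes in each ES and NMuMG culture, with 1 colour a gene. Bmp4 is the main part of each bar, Bmp7 is the second part in NMuMG cultures, Bmp5 adds nothing, and the NIH3T3 sums, at 0.0477 FPKM or less, are not drawn.

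Bmp1, the tolloid protease gene, had another pattern. It was 0.370 and 1.03 FPKM in the ES reporter cultures and 1.12 FPKM in the ES parental culture. In NIH3T3 cells it was 19.0 FPKM in the parental culture and 33.2 and 45.3 FPKM in replicates 2 and 3, and in NMuMG cells 20.1 and 19.4 FPKM in the reporter cultures and 25.0 and 21.0 FPKM in the parental cultures. ES replicates lay below all others, and NIH3T3 and NMuMG cells overlapped, with the parental NIH3T3 culture below every NMuMG replicate and replicates 2 and 3 above them.

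Gdf11, which in the embryo helps set the position of the trunk-to-tail transition, followed the same order of lines. Its level was 0.224 and 0.141 FPKM in the ES reporter cultures and 0.826 FPKM in the ES parental culture. It was 10.9 FPKM in the parental NIH3T3 culture and 13.2 and 9.79 FPKM in replicates 2 and 3, and 8.77 and 10.7 FPKM in the NMuMG reporter cultures and 7.26 and 5.67 FPKM in the NMuMG parental cultures. ES cells were again below both other lines, which overlapped. In NIH3T3 replicates 2 and 3 the Gdf11 level lay above its own deposited upper bound, at 12.5 and 9.38 FPKM.

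Gdf15 was the most abundant of the 10 genes in any line, and it was so in NMuMG cells. It was 3.54 and 1.18 FPKM in the ES reporter cultures and 1.47 FPKM in the ES parental culture. In NIH3T3 cells it was 0.280 FPKM in the parental culture, and 0.0569 and 0 FPKM in replicates 2 and 3, and in NMuMG cells 121.4 and 122.5 FPKM in the reporter cultures and 89.2 and 77.8 FPKM in the parental cultures. No 2 lines overlapped, with NMuMG cells highest and NIH3T3 cells lowest. Its mean of 102.7 ± 22.7 FPKM in NMuMG cells (SD, n = 4) stood at percentile 93.3 of the genes at 1 FPKM or more and was 71.2 ± 4.41% of the summed level of the 10 genes. Each NMuMG level of Gdf15 lay above its own deposited upper bound. These bounds were 105.6 and 104.1 FPKM in the reporter cultures and 78.4 and 67.9 FPKM in the parental cultures, so the exact size is uncertain.

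The order of the genes within a line differed accordingly. In ES cells Bmp4 came first and Gdf15 second, both apart from the next gene in every replicate. The following neighbours from Bmp1 through Bmp7, Bmp6, Bmp8b, Bmp8a and Gdf11 to Bmp2, with means of 0.838 down to 0.353 FPKM, overlapped one with the next. In NIH3T3 cells Bmp1 came before Gdf11 in each of the 3 replicates, and the other genes were each at 0.280 FPKM or less in every replicate. In NMuMG cells the order was Gdf15, Bmp1, then Bmp4 and Gdf11, which overlapped, then Bmp7, then Bmp2 and Bmp8a, which overlapped, and then Bmp6, Bmp8b and Bmp5.

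The lines were tested with limma on log2(FPKM + 1) over 12350 genes that reached 1 FPKM in at least 3 of the 10 replicates, and a gene was called at a Benjamini-Hochberg adjusted p under 0.05 with a difference of at least 2-fold. The genes Bmp1, Bmp4, Bmp7, Gdf11 and Gdf15 met the minimum level, and Bmp2, Bmp5, Bmp6, Bmp8a and Bmp8b did not and were not tested. The minimum itself asks for a high level in at least 1 line, so the number of these genes that was called is a description. Changes are on the log2(FPKM + 1) scale, which understates them for low genes. The 3 comparisons share samples. The labels number some cultures as biological samples and say no more of their origin, so the p-values measure only the spread between these samples.

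ES cells against NMuMG cells showed the protease gene and both Gdf genes lower and Bmp4 higher. Of the genes tested, 4 were called, 1 higher and 3 lower, where 45.8% of all genes were called, 19.4% as higher and 26.4% as lower. Gdf15 fell by 5.13 in ES cells relative to NMuMG cells (SE 0.271, limma adjusted p = 1.06e-07), Bmp1 fell by 3.63 (SE 0.273, adjusted p = 1.43e-06) and Gdf11 fell by 2.70 (SE 0.236, adjusted p = 4.05e-06). Within the first number run the changes were -4.97, -3.78 and -2.59 and within the second, which has 1 ES culture, -5.50, -3.39 and -2.95, where Gdf11 was no longer called (adjusted p = 0.0761). In the parental cultures alone the Gdf11 change was -2.02 (adjusted p = 0.0522), and with a pseudocount of 0.1 the changes of Bmp1 and Gdf11 were -4.63 and -4.26 and both remained called.

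Bmp4 rose by 1.22 in ES cells relative to NMuMG cells (SE 0.482, limma adjusted p = 0.0446), a call that rests on a narrow margin and on the reporter cultures. It was lost within the first number run (1.11, adjusted p = 0.128), within the second (1.83, adjusted p = 0.165), with a pseudocount of 0.1 (1.31, adjusted p = 0.0517) and with no minimum level (adjusted p = 0.0769). It was kept with the number run as a replicate block (1.40, adjusted p = 0.0125) and with quantile normalization (1.46, adjusted p = 0.0189). Between parental cultures alone, 7.56 FPKM in ES cells stood against 6.17 and 6.88 FPKM in NMuMG cells, a change of 0.19 (adjusted p = 0.505). It was also lost when any 1 replicate was left out (adjusted p 0.0578 to 0.201), except the ES parental culture (adjusted p = 0.00330) or NMuMG reporter culture 2 (adjusted p = 0.0157), and without ES reporter culture 2 the change was 0.71. Bmp7 changed by -0.71 (SE 0.246, adjusted p = 0.0262), under 2-fold on the log2(FPKM + 1) scale and not called. Its mean FPKM was 2.59 times as high in NMuMG as in ES cells. With a pseudocount of 0.1 the change was -1.16 and called (adjusted p = 0.0219).

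NIH3T3 cells against NMuMG cells showed the ligand genes Bmp4, Bmp7 and Gdf15 lower, with 3 genes called, all lower, where 25.0% of all genes were called and 14.4% as lower. Gdf15 fell by 6.52 (SE 0.271, limma adjusted p = 2.38e-08) and Bmp4 fell by 3.08 (SE 0.482, adjusted p = 0.000505). Because the NIH3T3 levels are near 0, the size depends on the pseudocount, and at 0.1 it was -9.12 and -6.07. Bmp7 was listed at 0 in NIH3T3 cells, so no fold is given, and its difference was called (adjusted p = 0.000581). Bmp1 and Gdf11 were not called, at 0.50 (SE 0.273, adjusted p = 0.172) and 0.46 (SE 0.236, adjusted p = 0.151). The sign for Bmp1 turned to -0.26 in parental cultures alone and to -0.09 within the second number run, the only run that holds both lines. In that run the single NIH3T3 culture is assumed to vary like the 2 NMuMG cultures, so its values are given as sizes: -6.27 for Gdf15 and -3.47 for Bmp4. The Bmp7 call was lost in parental cultures alone and within that run, where it was not the only call lost.

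ES cells against NIH3T3 cells, finally, had Bmp4 and Gdf15 higher and Bmp1 and Gdf11 lower, 4 genes called where 43.0% of all genes were called, 20.1% as higher and 23.0% as lower. Bmp4 rose by 4.29 (SE 0.516, limma adjusted p = 4.59e-05), and by 7.38 at a pseudocount of 0.1. Bmp1 fell by 4.13 (SE 0.292, adjusted p = 1.07e-06) and Gdf11 fell by 3.16 (SE 0.252, adjusted p = 2.50e-06), and at a pseudocount of 0.1 the changes were -5.15 and -4.76. Gdf15 rose by 1.39 (SE 0.290, adjusted p = 0.00185), and by 3.42 at that pseudocount, but it was not called in parental cultures alone (0.95, adjusted p = 0.130), nor with the number run as a replicate block (0.98, adjusted p = 0.112), and within the second number run it was at 0.77. In that run 1 ES culture stood against 1 NIH3T3 culture and the spread came from the 2 NMuMG cultures alone, so its values are given as sizes: -3.30 for Bmp1, 5.30 for Bmp4 and -3.39 for Gdf11. Bmp7 was listed at 0 in NIH3T3 cells. Its difference passed the adjusted p (0.0183) but was under 2-fold on the log2(FPKM + 1) scale, and no fold in FPKM is given. It was called with a pseudocount of 0.1 (adjusted p = 9.50e-05) and with the number run as a replicate block (adjusted p = 0.0410).

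**Figure D3:**
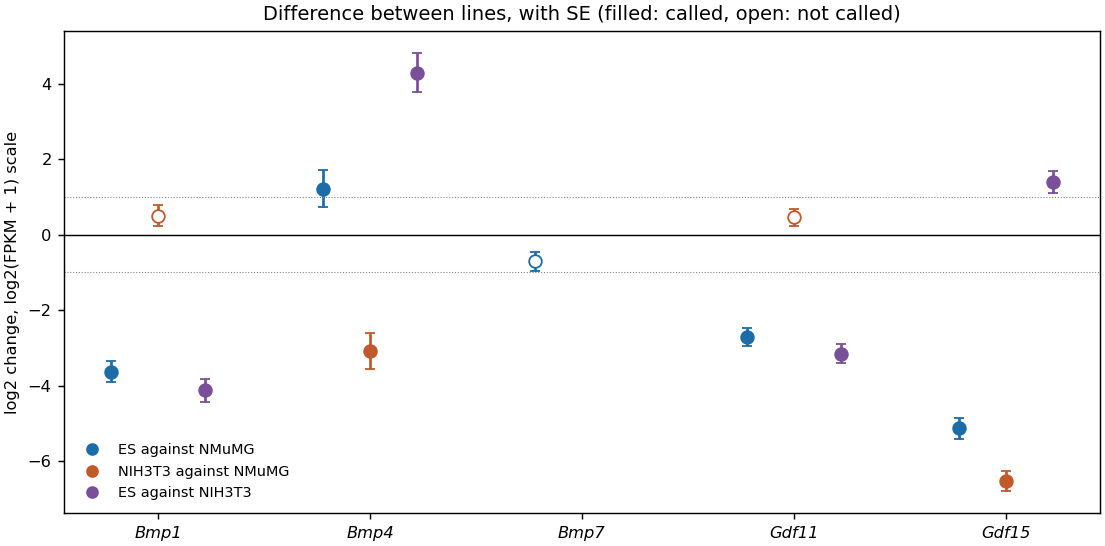
Change on the log2(FPKM + 1) scale with its SE for the tested genes in the 3 line comparisons, where filled points were called, open points were not and dotted lines mark 2-fold. Gdf15 is lowest against NMuMG cells at -6.52 in NIH3T3 cells and -5.13 in ES cells, and Bmp7 has no point against NIH3T3 cells, where it was listed at 0.

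The genes under the minimum level were fitted only when the minimum was left out, over 19096 genes. Bmp6 was then 0.57 higher in ES than in NMuMG cells (SE 0.108, limma adjusted p = 0.00210) and Bmp8b 0.62 higher (SE 0.0694, adjusted p = 9.46e-05), each under 2-fold on the log2(FPKM + 1) scale and so not called. Relative to NIH3T3 cells these differences were 0.70 for Bmp6 (adjusted p = 0.00105) and 0.66 for Bmp8b (adjusted p = 0.000115). Bmp2 had -0.13 in ES against NMuMG cells (adjusted p = 0.672), and Bmp8a 0.06 (adjusted p = 0.738).

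The reporter cultures were compared with the parental cultures in the 7 replicates matched to either, over 12276 genes. None of the 5 tested genes was called by limma in NMuMG cells, where 0.212% of all genes were called and 1 of the 5 had an unadjusted p under 0.05, or in ES cells, where 0.0978% of all genes were called and 2 of the 5 had one. The difference between the changes in ES and in NMuMG cells was called for none of them either, against 0.0244% of all genes. In ES cells there was 1 parental culture, so the spread came from the other groups.

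On the log2(FPKM + 1) scale Bmp4 in ES cells had the largest change of the tested genes: both reporter cultures lay above the parental culture and the change was 1.82 (SE 0.642, adjusted p = 0.470, unadjusted p = 0.0318). The technical runs of ES reporter culture 1 gave 21.7 and 22.2 FPKM, much closer than the cultures to each other. In NMuMG cells the Bmp4 change was 0.37 (SE 0.524, adjusted p = 1.00) with overlapping cultures. Gdf11 was higher in both NMuMG reporter cultures than in both parental cultures, by 0.52 (SE 0.205, adjusted p = 0.951, unadjusted p = 0.0459), and lower in both ES reporter cultures than in the parental one, by -0.63 (SE 0.252, adjusted p = 0.557, unadjusted p = 0.0497). Gdf15 was also higher in both NMuMG reporter cultures, by 0.54 (SE 0.352, adjusted p = 1.00). Bmp1 and Bmp2 were the genes lower in both NMuMG reporter cultures. For Bmp2 the change was -0.74 with no minimum level (SE 0.244, adjusted p = 0.844). Bmp6 in ES reporter cultures, again with no minimum level, was at -0.49 (SE 0.0537) against a single parental culture. This is under 2-fold on the log2(FPKM + 1) scale, while the ratio of the mean FPKM values was 0.442.

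**Figure D4:**
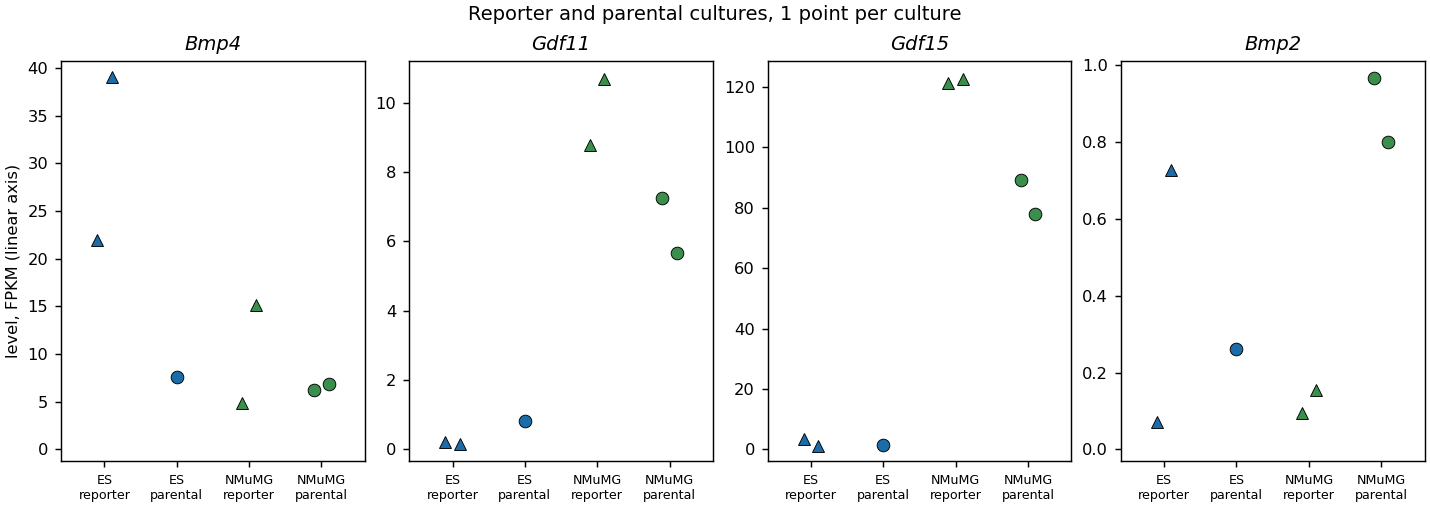
FPKM of Bmp4, Gdf11, Gdf15 and Bmp2 in reporter and parental cultures of ES and NMuMG cells, 1 point a culture, on linear axes of different length. Gdf11 and Gdf15 are higher and Bmp2 lower in both NMuMG reporter cultures, and Bmp4 is higher in both ES reporter cultures, none of them called.

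The genes that process, hold or receive these ligands are given by list, and each count stands against the share of all tested genes called: 45.8% in ES against NMuMG cells (19.4% higher, 26.4% lower), 25.0% in NIH3T3 against NMuMG cells (10.6% higher, 14.4% lower) and 43.0% in ES against NIH3T3 cells (20.1% higher, 23.0% lower). Of 4 tested proprotein convertase genes, Furin, whose enzyme cuts BMP precursors, fell by 3.66 in ES against NMuMG cells (SE 0.181, limma adjusted p = 6.94e-08), at 4.60 ± 1.21 FPKM in ES cells and 69.0 ± 7.21 FPKM in NMuMG cells (SD, n = 3 and 4), and the other 3 were not called. In NIH3T3 against NMuMG cells 2 of the 4 were lower, Pcsk6, at 0.00973 FPKM or less in each NIH3T3 replicate against 3.43 to 15.4 FPKM in NMuMG cells, and Pcsk7, which was listed at 0 in NIH3T3 replicates 2 and 3 and was 5.30 FPKM in the parental NIH3T3 culture. In ES against NIH3T3 cells Pcsk6 was higher and Furin lower. Of 11 tested genes for tolloid proteases, their enhancers and substrates, which Bmp1 acts with or on, 9 rose and 1 fell in NIH3T3 against NMuMG cells, led by Col1a2 (9.95), Bgn (9.95), Col1a1 (9.45) and Lox (8.95), with a median of 5.38 against -0.05 over all genes. These encode fibrillar collagen chains, biglycan and lysyl oxidase. Col1a1, Col1a2, Lox and 1 other of the 9 are also among the fibroblast markers used above, so their high level in NIH3T3 cells was given by the line. The chordin gene, 1 of the 9, is also counted among the antagonists below. Bmp1 itself was not called between NIH3T3 and NMuMG cells. In ES against NMuMG cells 1 rose (Pcolce2, 2.58) and 1 fell (Ltbp1, -2.62), with a median of 0.01 against -0.09, and in ES against NIH3T3 cells 1 rose and 8 fell, with a median of -4.96 against 0.03.

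Of 10 tested genes for secreted antagonists and modulators, 5 rose and none fell in NIH3T3 against NMuMG cells, among them Fstl1 (7.21), Bmper (2.63) and Fstl3 (1.33), with a median of 0.82. In ES against NMuMG cells 2 rose, Fstl1 and Htra1, and 5 fell, such as Nbl1 and Twsg1 (median -0.65), and in ES against NIH3T3 cells 8 fell and none rose (median -2.60). Of 7 tested receptor genes, ES cells had 1 higher and 3 lower than NMuMG cells (Acvr2b at 1.94, and Acvr1 at -2.29, Tgfbr1 at -1.72 and Bmpr2 at -1.36, median -0.46), NIH3T3 cells had none called against NMuMG cells (median -0.34), and ES cells had 1 higher and 2 lower than NIH3T3 cells (median -0.57). Against the 45.8% and 43.0% of all genes called in the ES comparisons, these receptor counts are near the background.

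Of 11 tested genes for other ligands of the family, 4 rose and 4 fell in ES against NMuMG cells (median 0.08), 4 rose and 2 fell in NIH3T3 against NMuMG cells (median 0.00), and 5 rose and 6 fell in ES against NIH3T3 cells (median -1.10). Of 8 SMAD genes, 1 rose and 3 fell, 1 rose and none fell, and 1 rose and 4 fell in these comparisons (medians -0.52, -0.37 and -1.03). The first 2 counts are near or under the 45.8% and 25.0% of all genes called. The last is above the 43.0% called, with 4 of 8 lower where 23.0% of all genes were lower. Of 8 tested BMP-induced genes, 1 rose and 5 fell, 3 rose and 2 fell, and none rose and 5 fell in the same comparisons (medians -1.33, 0.62 and -1.54). In the BMP-induced list Id1, which BMP signalling raises through SMADs, fell by 1.36 in ES against NMuMG cells. By size it had rank 4 among the called genes of that list. Whether BMP signalling differed between the lines was not tested.

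Gdf15 is known to be induced by the integrated stress response and by p53, and the counts for both gene lists are given here beside its level. Whether either sets the Gdf15 level in these lines was not tested. Of 12 integrated stress response genes, 6 fell and none rose in ES against NMuMG cells (median -1.35), where 26.4% of all genes were lower and 45.8% called in all, and 5 fell and 1 rose in NIH3T3 against NMuMG cells (median -1.15), where 14.4% of all genes were lower. Atf3, a stress-induced transcription factor, fell by 2.63 in ES cells (SE 0.301, limma adjusted p = 2.80e-05) and had a change of -3.33 in NIH3T3 cells (SE 0.301, adjusted p = 8.50e-06), both relative to NMuMG cells. Ddit3 was listed at 0 in every ES replicate and was 35.9 to 84.4 FPKM in NMuMG cells. In NIH3T3 cells, where Gdf15 was lowest, Ddit3 was 0 to 81.7 FPKM and overlapped the NMuMG range. As stated above, an exact 0 may be a failed estimate, which holds for Ddit3 in both lines. Of the 12 stress genes, 6 were not called in ES against NMuMG cells and 6 in NIH3T3 against NMuMG cells. Of 12 p53 target genes, counting Trp53 itself, 5 fell and 1 rose in ES against NMuMG cells (median -0.83), and 8 fell and 1 rose in NIH3T3 against NMuMG cells (median -1.94), to be read against the same shares. Cdkn1a, the p53-induced cell cycle inhibitor, fell by 3.75 in ES cells and by 2.46 in NIH3T3 cells relative to NMuMG cells. In ES against NIH3T3 cells, where Gdf15 was higher in ES cells, 1 stress gene rose and 3 fell (median -0.48), and 6 p53 genes rose and 3 fell (median 0.97). No gene of the lists for convertases, tolloid partners, antagonists, receptors, other ligands, SMADs, BMP-induced genes, stress response or p53 was called in either reporter comparison.

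The genes whose levels followed a tested gene most closely over the 10 replicates were, for Gdf15, Tspan15 and Myo5c (Pearson's r 0.997 each on the log2 scale), for Bmp1, Bmi1 (0.996) and Tulp4 (0.992), and for Gdf11, Mthfd2l (0.989) and Fmnl3 (0.987). For Bmp4 they were Hiat1 (0.982) and Adap1 (0.979) and for Bmp7 Sgsm1 (0.960) and Plek2 (0.959). They were taken from 10276 genes of at least 5 FPKM on average in 1 line. The replicates form 3 lines, so a gene that differs between lines in the same way gives a high r, and r passed 0.9 for 1083 genes with Bmp1, 949 with Gdf11, 678 with Gdf15, 109 with Bmp4 and 83 with Bmp7.

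On mm10 the tables place Bmp1 at chr14:70474555-70520260, Bmp2 at chr2:133553199-133562885, Bmp4 at chr14:46383520-46390599, Bmp5 at chr9:75775365-75899017, Bmp6 at chr13:38345716-38499728 and Bmp7 at chr2:172869687-172940293. Bmp8a lies at chr4:123312650-123343252, Bmp8b at chr4:123105165-123126091, Gdf11 at chr10:128884546-128891718 and Gdf15 at chr8:70629394-70631635. Bmp4 overlaps the entry Gm15217, which was listed at 0 in every replicate. In GENCODE M21 the coding transcript used has 2 exons for Gdf15, 3 for Bmp2 and Gdf11, 4 for Bmp4, 7 each for Bmp5, Bmp6, Bmp7, Bmp8a and Bmp8b, and 20 for Bmp1, and its coding length runs from 912 bases for Gdf15 to 1533 for Bmp6 among the ligand genes and is 2976 bases for Bmp1.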

How the data were processed

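Total RNA of cultured ES, NIH3T3 and NMuMG cells was extracted with RNeasy columns and made into NEBNext Ultra libraries, per the labels' protocols, giving 11 libraries. Base calls with bcl2fastq 1.8.4, alignment to mm10 with TopHat and quantification with Cufflinks are named in the submitters' processing notes, with no versions for the aligner and quantifier and no statement on strand. The authors deposited FPKM values for 23849 entries a library, and these were used with no rescaling. Summed FPKM ran from 429703 to 514980 a library.

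Entries of 1 symbol were summed (260 symbols) and 3 symbols with a failed status were left out. Technical runs were averaged. limma 3.58.1 in R 4.3.3, with an intensity trend, was fitted to log2(FPKM + 1) over all genes at 1 FPKM or more in at least 3 of 10 replicates (lines) or 2 of 7 (reporter), two-sided with Benjamini-Hochberg adjustment, after it had been tested on simulated data. Fits on fewer samples kept the genes of the main comparison. The alternatives were a pseudocount of 0.1, no minimum level, quantile normalization, leaving out each replicate, number runs and culture numbers as blocks, single runs and parental cultures alone. Python 3.11.15 with NumPy 2.4.6 and pandas 2.3.3 gave the summaries, and matplotlib 3.10.9 the plots.

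The 10 genes and the 9 gene lists were chosen with earlier results of these data known. All 10 genes are named. From each list at most 4 called genes with the largest change are eligible to be named, and for each tested gene the 2 most correlated genes. A gene that this rule names is not reported here. Rps27 and the overlapping Oxct2a, Oxct2b and Gm15217 were named after their values were seen. Start positions in the tables are counted from 0 and were raised by 1.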

Additional observations from a re-analysis of the deposited data

Results flagged for a closer look

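The change of Gdf11 from parental to reporter cultures had opposite signs in ES and NMuMG cells, in all cultures. Gdf11 was flagged by this order of its cultures, so the p-values below come from the values that chose it. Whether the reporter causes the change was not tested. Gdf11 was 0.224 and 0.141 FPKM in the ES reporter cultures against 0.826 FPKM in the ES parental culture, and 8.77 and 10.7 FPKM in the NMuMG reporter cultures against 7.26 and 5.67 FPKM in the NMuMG parental cultures. The change in ES cells minus that in NMuMG cells was -1.15 on the log2(FPKM + 1) scale (SE 0.325, limma unadjusted p = 0.0136). Its limma adjusted p over 12276 genes was 0.442, so it was not called. The same test called 0.0244% of all genes and none of the 5 tested here, and 1 of the 5 had an unadjusted p under 0.05. Leaving out 1 replicate at a time, other than the only ES parental culture, gave -1.31 to -0.998, and a pseudocount of 0.1 gave -2.31 (adjusted p = 0.250). All ES values lie under 1 FPKM and rest on 1 parental culture.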

How the results depend on the processing

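Leaving out 1 replicate at a time gave 5490 to 5833 called genes for ES against NMuMG cells, 2909 to 3345 for NIH3T3 against NMuMG cells and 4941 to 5461 for ES against NIH3T3 cells, with 3 to 4, 3 and 4 of the genes described here called. The reporter counts were unstable: 0 to 62 genes in NMuMG cells (26 with all replicates), 0 to 198 in ES cells (12) and 0 to 198 for the difference (3), with none of the genes described here called in any. The NMuMG count was 0 without either NMuMG reporter culture, 62 without NMuMG parental culture 1 and 15 and 16 without ES reporter culture 1 or 2. Those last fits gave 198 and 185 calls in ES cells and 194 and 198 for the difference, while leaving out any NMuMG culture gave at most 1 and 5. The range crossed 0 for Gdf15 in ES reporter cultures (-0.18 to 0.88), Bmp4 (-0.36 to 1.10) and Bmp7 (-0.16 to 0.79) in NMuMG reporter cultures, and the differences of Bmp1 (-0.43 to 0.14), Bmp7 (-0.59 to 0.36) and Gdf15 (-0.72 to 0.34).

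A pseudocount of 0.1 gave 59 calls for the NMuMG reporter and 22 for the difference, no minimum level gave 17, 225 and 176 for NMuMG, ES and the difference, and quantile normalization 10, 0 and 0. In ES against NMuMG cells quantile normalization gave 2876 genes higher and 2732 lower, against 2392 and 3259 in the main fit. Within the second number run the line counts were 2078 for ES against NMuMG cells, 885 for NIH3T3 against NMuMG cells and 1696 for ES against NIH3T3 cells, with 2, 1 and 1 of the genes described here called. In parental cultures alone they were 2412, 941 and 2030, with 2, 2 and 3 called. These fits have fewer samples, with 1 culture in some lines, which is assumed to vary like the others. Bmp1 in NIH3T3 against NMuMG cells turned to -0.089 and -0.26 in them.

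The culture numbers were not taken as pairing: same-numbered cultures differed alike (r of 0.274 to 0.366), but only 2 numbers exist and the labels do not say what they mark. In the reporter comparisons culture numbers 1 and 2 are the same split as the first and second number runs, so the 2 cannot be told apart there. With the culture number as a replicate block, 8, 0 and 0 genes were called for NMuMG, ES and the difference, and the Bmp7 change in ES cells turned to -0.020 and the Gdf15 difference to 0.014. With the number run as a replicate block Bmp1 in NIH3T3 against NMuMG cells turned to -0.17. The causes of these changes were not tested. Absolute depth is unknown, so no limit is given for a gene listed at 0.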

Other observations

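Of the 24 other ligand genes of the family that were listed for comparison, 13 did not reach the minimum level and were not tested. None of these 13 passed 0.444 FPKM in any replicate, and Bmp10 and Gdf1 were listed at 0 in every replicate. The highest were Amh, the anti-Muellerian hormone gene (mean 0.270 FPKM in ES cells), Gdf9, known from the oocyte (mean 0.267 FPKM in ES cells), and Inhbc (mean 0.198 FPKM in ES cells). Gdf7 reached 0.340 FPKM in 1 NMuMG replicate.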
